A study of Rattus norvegicus with 10 samples.

Results

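The 9 genes described here encode channels, transporters and a ubiquitin ligase that set how much liquid lies on the airway and alveolar surface: Scnn1a, Scnn1b, Scnn1g, Nedd4l, Atp1b1, Slc12a2, Cftr, Ano1 and Slc26a4. They were taken by symbol from a table of 22250 genes, and all 9 were found and passed the filter on low counts. Messenger RNA had been sequenced in 10 rat lung libraries, 5 named XBS and 5 named MOD. By the series' design, rats were given lipopolysaccharide and ovalbumin to bring on neutrophilic asthma, and a formula abbreviated SP, Shuangpi in the title, was given as treatment. The labels expand neither XBS nor MOD and do not tie either name to SP. Strain, age, dose and sampling time are not stated in the sources used here. Nor is it stated that each library is a separate animal, so a p-value below reflects only how far these libraries vary, possibly for technical reasons. The labels also list the human bronchial line 16HBE, but the table holds rat genes, and Sftpc, which encodes a surfactant protein of alveolar type 2 cells, reached 5902 to 13070 CPM in the XBS libraries against 10580 to 14370 CPM in the MOD libraries. CPM is the read count set relative to library size after scaling between libraries.

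Lung liquid is moved by salt. The epithelial sodium channel, built from the alpha, beta and gamma subunits that Scnn1a, Scnn1b and Scnn1g encode, lets sodium in from the surface, the sodium pump on the other side of the cell exports it, and water follows, which clears the alveoli. Secretion runs the other way: the cotransporter encoded by Slc12a2 loads chloride into the cell and the channels encoded by Cftr and Ano1 release it onto the airway surface, while pendrin, encoded by Slc26a4, exchanges chloride for bicarbonate and other anions. The ligase encoded by Nedd4l binds the sodium channel and removes it from the membrane.

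Total counts were 11998979 to 15518929 in XBS and 13681330 to 15248086 in MOD, so that 3 counts stood for 0.193 to 0.25 CPM. XBS 2 and XBS 3 stood apart in airway genes. The summed level of 11 ciliated cell markers was 384 CPM in XBS 2 and 386 CPM in XBS 3, against 664 to 1131 CPM in the other XBS libraries and 746 to 913 CPM in MOD. Tppp3 alone gave 296 CPM of the sum in XBS 2 and 302 CPM in XBS 3. With each marker weighted alike, the mean log2 CPM, centred over the 10 libraries, was -1.83 and -1.81 there, against -0.159 to 0.96 elsewhere. For 10 club cell markers the sums were 2942 and 3234 CPM, against 8547 to 9657 CPM in the other XBS libraries and 8652 to 12950 CPM in MOD. Fold changes of XBS over MOD were negative for 10 of 11 tested ciliated markers and 7 of 8 tested club markers. Of these, 1 club marker passed in edgeR, Cyp4b1 (adjusted p = 0.0104), where 0.0489% of all genes passed as lower. Unlike the club sum, Cyp4b1 was lower in all 5 XBS libraries (218.9 to 273.0 CPM) than in any MOD library (376.6 to 405.5 CPM). Its levels did not set XBS 2 and XBS 3 apart from the other XBS libraries. XBS 5 had the highest summed levels of fibroblast (8704 CPM) and smooth muscle markers (3896 CPM) and the lowest of alveolar type 2 markers (17310 CPM, against 25580 to 34810 CPM elsewhere).

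None of the 9 genes passed an adjusted p of 0.05 in edgeR over the 14320 genes tested: 0 rose, 0 fell and 9 did not pass, where 0.0279% of all genes passed as higher, 0.0489% as lower and 0.0768% in either direction. At an unadjusted p under 0.05, edgeR gave 4 of the 9, Scnn1a, Scnn1b, Scnn1g and Nedd4l, all lower in XBS, where 5.78% of all genes were lower, 7.4% higher and 13.2% either. DESeq2 called 2 of the 9 lower, Nedd4l and Scnn1g, where it called 1.08% of all genes lower, 1.5% higher and 2.58% either. limma voom with sample weights called 0 of the 9, against 0.168% of all genes lower, 0.3% higher and 0.468% either. Of the 9 log2 fold changes, 7 were negative and the median was -0.31; over all genes tested, 6895 of 14320 were negative and the median was 0.01. No member had groups that did not overlap, which held in 2.74% of all genes.

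**Figure D1:**
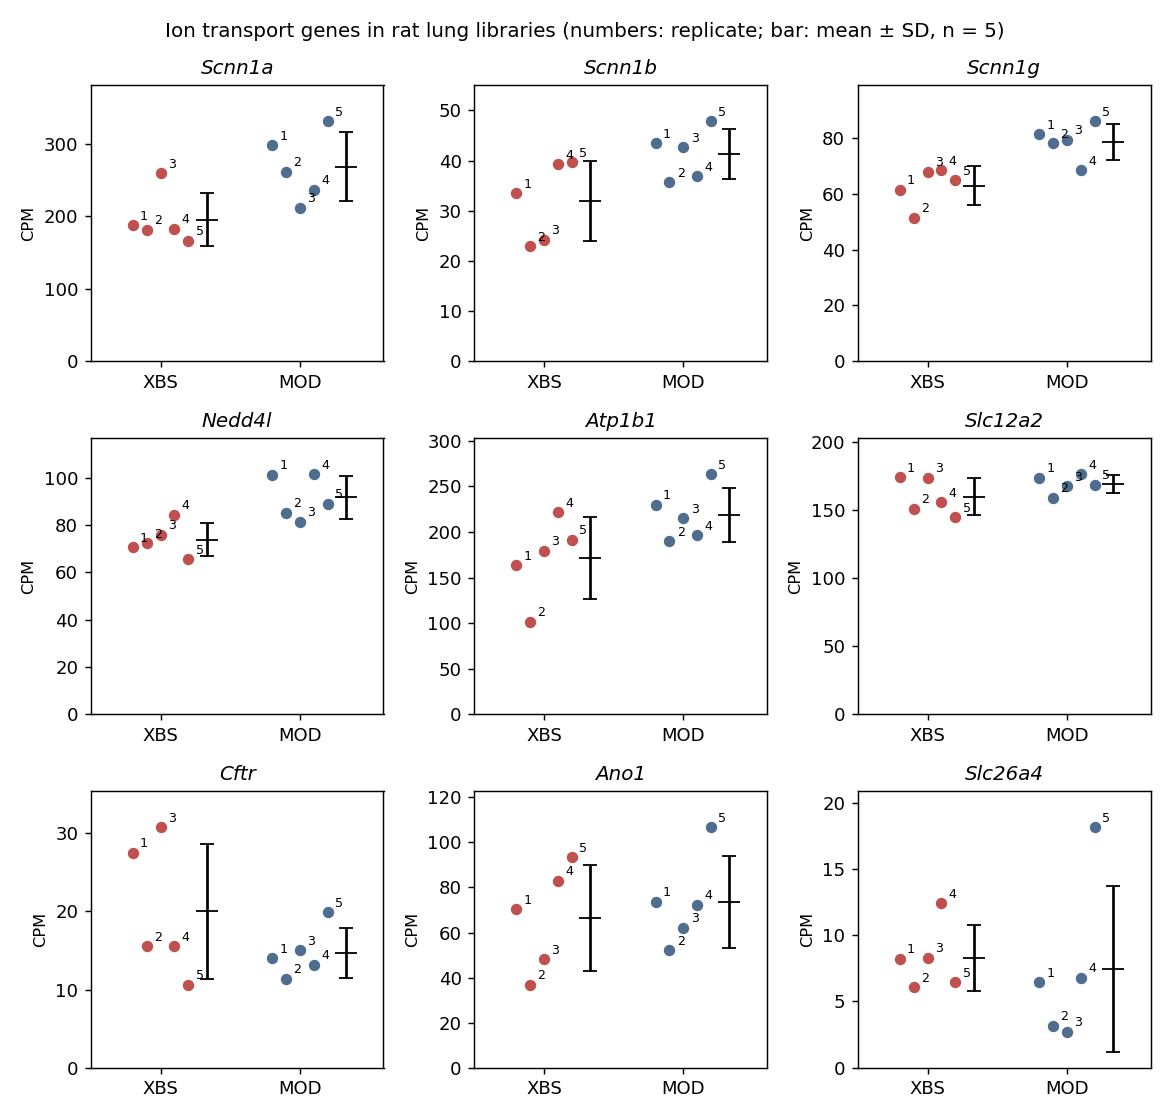
Level of each gene in CPM (vertical axes, from 0) in every XBS and MOD library (points, numbered by replicate), with the mean and SD of each group (bars, n = 5). Scnn1a, Scnn1g and Nedd4l lie lower in XBS with an overlap of 1 XBS library each, while Cftr is high in XBS 1 and XBS 3 and Slc26a4 in MOD 5.

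The alpha subunit gene Scnn1a, whose product the channel cannot do without, had the largest negative difference of the 9. It had 187, 182, 259, 183 and 166 CPM in XBS 1 to 5, against 298, 261, 212, 237 and 331 CPM in MOD 1 to 5. Of the XBS libraries, 4 lay below every MOD library, and XBS 3 lay within the MOD range. Scnn1a averaged 195 ± 36.5 CPM in XBS and 268 ± 47.6 CPM in MOD (SD, n = 5 each), 1.37-fold lower, with a log2 fold change of -0.46 ± 0.14 (SE) that did not pass in edgeR (adjusted p = 0.237). Without XBS 2 and XBS 3 the log2 fold change was -0.58 ± 0.14 (edgeR adjusted p = 0.248). In these bulk samples, fewer cells of a type and less RNA per cell cannot be told apart.

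The gamma subunit gene Scnn1g was lower by a smaller and steadier margin. Its levels were 61.4, 51.5, 67.9, 68.5 and 64.9 CPM in XBS 1 to 5, against 81.3, 78.1, 79.4, 68.3 and 86.0 CPM in MOD 1 to 5. The groups touched at 1 point, XBS 4 and MOD 4, which differed by less than the SD within either group. The means were 62.8 ± 6.96 CPM in XBS and 78.6 ± 6.50 CPM in MOD (SD, n = 5 each), 1.25-fold lower, with a log2 fold change of -0.32 ± 0.09 (SE, edgeR adjusted p = 0.197). DESeq2 gave an adjusted p = 0.0494 for Scnn1g, and over all 18 alternatives it ran from 0.0494 to 0.401. Without XBS 2 and XBS 3 its log2 fold change was -0.28 ± 0.09.

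The beta subunit gene Scnn1b differed between XBS libraries more than the gamma gene. It had 33.4, 23.0, 24.2, 39.3 and 39.7 CPM in XBS 1 to 5, against 43.4, 35.7, 42.7, 36.9 and 47.9 CPM in MOD 1 to 5. Its lowest values were in XBS 2 and XBS 3, the libraries with low airway markers, while XBS 4 and XBS 5 lay within the MOD range. Scnn1b averaged 31.9 ± 7.997 CPM in XBS and 41.3 ± 5.01 CPM in MOD (SD, n = 5 each; log2 fold change -0.37 ± 0.16, SE, edgeR adjusted p = 0.371). Without XBS 2 and XBS 3 the log2 fold change was -0.14 ± 0.12 (SE, edgeR adjusted p = 0.64). Leaving out the lowest libraries shrinks the difference by itself, so this fit cannot serve as a test of airway content. The part of airway cell content in this difference was not tested.

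Nedd4l, the ligase that targets the channel for removal, had a lower mean in XBS, without passing the test in edgeR. It had 70.8, 72.3, 76.0, 84.3 and 65.7 CPM in XBS 1 to 5, against 101, 85.2, 81.5, 102 and 89.0 CPM in MOD 1 to 5. The groups overlapped through XBS 4, which lay above MOD 3. The means were 73.8 ± 6.94 CPM in XBS and 91.7 ± 9.22 CPM in MOD (SD, n = 5 each), 1.24-fold lower, with a log2 fold change of -0.31 ± 0.09 (SE, edgeR adjusted p = 0.197). By DESeq2 the adjusted p was 0.0486, within a range of 0.0486 to 0.44 over all alternatives, and without XBS 2 and XBS 3 the log2 fold change of Nedd4l was -0.32 ± 0.11.

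Alveolar type 1 markers were lower in XBS along with the channel genes, without passing the test. All 10 of 10 listed genes of these flat gas exchange cells, which also carry the channel, had a negative fold change, 0 of them past the threshold in edgeR. Their summed level was 4377 to 7061 CPM in XBS, against 6811 to 7912 CPM in MOD, with XBS 3, the XBS library highest in Scnn1a, also the highest XBS library here. In MOD the 2 did not match: Scnn1a was highest in MOD 5 and the marker sum in MOD 2. Alveolar type 2 markers had 8 negative and 2 positive fold changes, and summed to 17310 to 34810 CPM in XBS, against 25580 to 33110 CPM in MOD. The part of these cell types in the channel results was not tested.

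**Figure D2:**
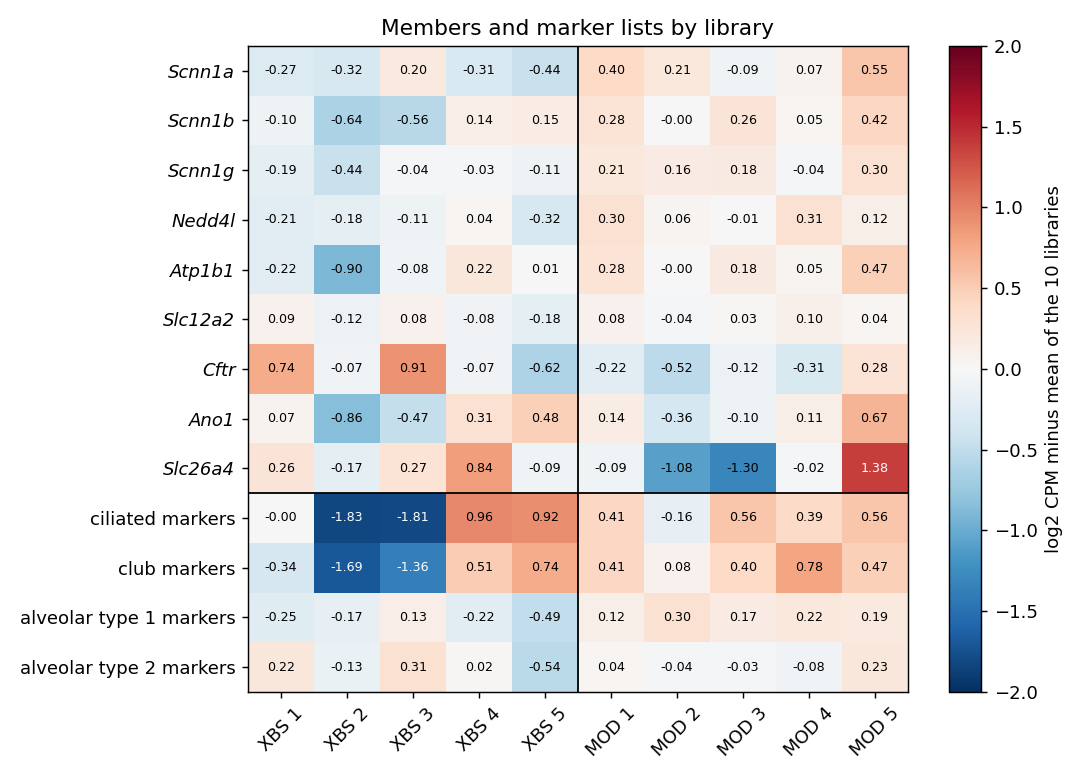
Log2 CPM minus the mean of the 10 libraries for each gene (upper rows) and the mean of the same quantity over ciliated, club, alveolar type 1 and alveolar type 2 markers (lower rows), by library (columns, XBS left, MOD right). XBS 2 and XBS 3 are low in airway markers, at -1.83 and -1.81 for ciliated markers, and low in Scnn1b and Ano1, but not both low in Scnn1a or Cftr.

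In the deposited table Scnn1g (ENSRNOG00000017842) lies on chromosome 1 from 191704311 to 191738268 and Scnn1b (ENSRNOG00000030981) from 191829555 to 191884298, both on the plus strand and 91286 bases apart, in a genome build not given in the sources used here. Scnn1a (ENSRNOG00000019368) lies on chromosome 4 from 157836912 to 157860049, plus strand, and Nedd4l (ENSRNOG00000017610) on chromosome 18 from 60392376 to 60719720, plus strand. RefSeq promoter sequences of build GRCr8 matched 7 of the 9 genes by symbol; Scnn1a and Atp1b1 were not among them. The 250 bases before the start are shown for Scnn1g, Scnn1b and Nedd4l, whose unadjusted p in edgeR was under 0.05, and for Cftr, which had the largest positive difference. Capitals mark the GC box, searched as GGGCGG on both strands, the letters bound by Sp1-family factors.
Scnn1g, chr1:185735975-185736224, plus strand: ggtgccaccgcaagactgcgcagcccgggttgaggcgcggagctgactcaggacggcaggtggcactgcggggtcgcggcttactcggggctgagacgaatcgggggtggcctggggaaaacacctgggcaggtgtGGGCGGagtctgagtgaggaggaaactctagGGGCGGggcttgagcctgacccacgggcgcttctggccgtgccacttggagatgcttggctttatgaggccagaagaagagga
Scnn1b, chr1:185861126-185861375, plus strand: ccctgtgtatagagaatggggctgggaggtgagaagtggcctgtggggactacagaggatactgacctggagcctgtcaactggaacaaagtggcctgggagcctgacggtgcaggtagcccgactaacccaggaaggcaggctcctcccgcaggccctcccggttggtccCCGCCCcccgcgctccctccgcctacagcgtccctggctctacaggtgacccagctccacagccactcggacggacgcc
Nedd4l, chr18:60663720-60663969, plus strand: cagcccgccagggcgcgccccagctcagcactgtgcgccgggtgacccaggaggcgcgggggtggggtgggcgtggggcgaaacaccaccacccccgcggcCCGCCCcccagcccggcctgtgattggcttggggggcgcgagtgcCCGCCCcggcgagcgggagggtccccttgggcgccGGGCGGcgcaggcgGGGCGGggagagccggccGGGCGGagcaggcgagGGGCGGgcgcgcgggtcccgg
Cftr, chr4:47527379-47527628, plus strand: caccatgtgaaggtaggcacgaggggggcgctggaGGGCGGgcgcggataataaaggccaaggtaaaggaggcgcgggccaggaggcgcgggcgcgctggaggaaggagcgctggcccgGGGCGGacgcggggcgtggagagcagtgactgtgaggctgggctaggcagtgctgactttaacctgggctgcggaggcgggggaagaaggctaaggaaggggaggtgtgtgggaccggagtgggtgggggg
The GC box occurred 2 times for Scnn1g, 1 time for Scnn1b, 6 times for Nedd4l and 2 times for Cftr, and at least once in 30.5% of all 33469 promoter windows of the same length. In the matched windows not shown it occurred 3 times for Slc12a2, 5 times for Ano1 and 0 times for Slc26a4. Other letters searched on both strands were in none of the 7 windows: the TATA box TATAAA (12.9% of all windows), the E-box CACGTG (5.59%), the glucocorticoid receptor half-site AGAACA (17.5%), the cyclic AMP element TGACGTCA (1.59%) and its variant TGACATCA (3.8%). GC content was 65.6% for Scnn1g and for Scnn1b, 82.8% for Nedd4l and 69.2% for Cftr, against a median of 51.2% over all windows. These matches describe the letters only.

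Atp1b1, which encodes the beta 1 subunit that brings the sodium pump to the membrane, (ENSRNOG00000002934) is placed on chromosome 13, minus strand, from 82737159 to 82758004. It had 163, 101, 179, 222 and 192 CPM in XBS 1 to 5, against 230, 190, 215, 196 and 263 CPM in MOD 1 to 5. XBS 2 was the lowest of all libraries, and XBS 4 and XBS 5 lay within the MOD range. The means were 171 ± 44.5 CPM in XBS and 219 ± 29.5 CPM in MOD (SD, n = 5 each; log2 fold change -0.35 ± 0.18, SE, edgeR adjusted p = 0.422). Without XBS 2 the log2 fold change was -0.21, and without both XBS 2 and XBS 3 it was -0.19 ± 0.13. Leaving out the lowest library shrinks the difference by itself.

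Slc12a2, the sodium, potassium and chloride cotransporter NKCC1 that feeds chloride secretion, was the steadiest of the 9. Its gene (ENSRNOG00000015971) is on chromosome 18, plus strand, from 52917124 to 52985261. It had 174, 151, 174, 156 and 145 CPM in XBS 1 to 5, against 174, 159, 168, 177 and 169 CPM in MOD 1 to 5. The groups overlapped, and the log2 fold change was -0.08 ± 0.07 (SE, edgeR adjusted p = 0.62). Its log2 CPM had an SD of 0.099 over the 10 libraries, against 0.21 to 0.792 for the other members.

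Cftr, the cyclic AMP-regulated chloride and bicarbonate channel mutated in cystic fibrosis, had the largest positive difference. The deposited table places it (ENSRNOG00000055103) on chromosome 4, plus strand, from 42692836 to 42860676. Its levels were 27.5, 15.5, 30.8, 15.6 and 10.6 CPM in XBS 1 to 5, against 14.05, 11.4, 15.1, 13.2 and 19.9 CPM in MOD 1 to 5. XBS 1 and XBS 3 were above every MOD library, while XBS 5 was the lowest of all 10. Cftr averaged 20.01 ± 8.67 CPM in XBS and 14.7 ± 3.20 CPM in MOD (SD, n = 5 each), with a log2 fold change of 0.44 ± 0.28 (SE, edgeR adjusted p = 0.495). Without XBS 3 it was 0.23, and without XBS 2 and XBS 3 it was 0.28 ± 0.29. Alveolar type 2 markers were highest in XBS 3 and lowest in XBS 5 as well, at 34810 and 17310 CPM in sum; the part of these cells in the Cftr values was not tested.

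Ano1, the calcium-activated chloride channel TMEM16A, also made by smooth muscle, was low in the XBS libraries with low airway markers. It had 70.4, 36.9, 48.1, 82.9 and 93.5 CPM in XBS 1 to 5, against 73.8, 52.2, 62.2, 72.4 and 107 CPM in MOD 1 to 5. XBS 2 and XBS 3 were the lowest libraries, and MOD 5 the highest. Ano1 (ENSRNOG00000020865) is on chromosome 1, minus strand, from 217754336 to 217902473. The log2 fold change was -0.15 ± 0.26 (SE, edgeR adjusted p = 0.833), and it turned to 0.16 ± 0.20 without XBS 2 and XBS 3. Leaving out the lowest libraries raises the fold change by itself. Summed levels of 5 goblet cell markers were 31.1, 16.4, 19.4, 157 and 325 CPM in XBS 1 to 5. In MOD 1 to 5 these sums were 50.4, 34.0, 48.1, 160 and 242.5 CPM, so they differed widely within both groups. The part of airway content, goblet cells included, or of muscle content in the Ano1 values was not tested.

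Slc26a4, which encodes the anion exchanger pendrin, was the scarcest and most variable member in CPM. The table places it (ENSRNOG00000058692) on chromosome 6, minus strand, from 50808923 to 50846965. It had 8.22, 6.07, 8.28, 12.4 and 6.45 CPM in XBS 1 to 5, against 6.45, 3.17, 2.71, 6.78 and 18.1 CPM in MOD 1 to 5. MOD 5 was the highest library, and the other 4 MOD libraries lay at or below 6.78 CPM. The log2 fold change was 0.15 ± 0.47 (SE, edgeR adjusted p = 0.907), and 0.79 without MOD 5 (edgeR adjusted p = 0.341, with a range of 0.341 to 0.98 over all alternatives). Its direction turned, to -0.04 without XBS 4, -0.04 without MOD 2 and -0.06 without MOD 3. Counts of Slc26a4 were 37 to 256 per library, the fewest of the 9 genes.

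**Figure D3:**
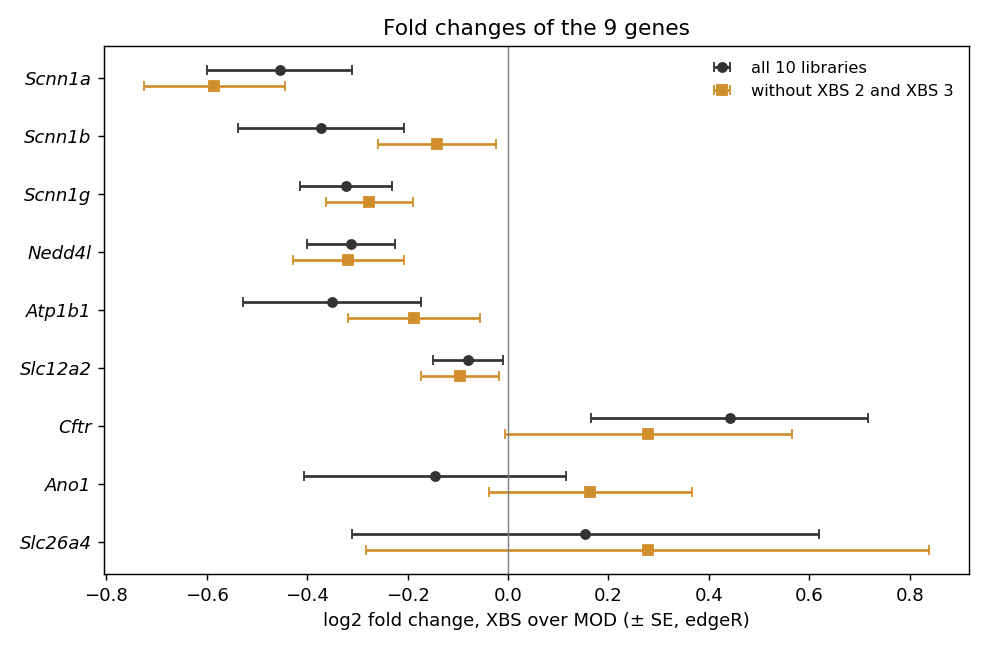
Log2 fold change of XBS over MOD (horizontal axis) with its SE from edgeR for each gene, from all 10 libraries (circles) and without XBS 2 and XBS 3 (squares). Scnn1a, Scnn1g and Nedd4l stay near their values, Scnn1b moves from -0.37 to -0.14 and Ano1 turns from -0.15 to 0.16. XBS 2 and XBS 3 held the lowest values of Scnn1b and Ano1, so leaving them out raises both fold changes by itself.

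Levels between genes were compared per length, as deposited FPKM (counts relative to gene length and library total). Atp1b1 (38.5 to 96.5 FPKM over the 10 libraries) and Scnn1a (50.7 to 95.9 FPKM) were the highest, and Atp1b1 exceeded Scnn1a in 6 of 10 libraries, so their order was not fixed. Scnn1a exceeded the next gene in all 10 libraries. Slc12a2 (23.3 to 27.6 FPKM), Scnn1g (17.1 to 27.6 FPKM), Nedd4l (15.7 to 23.7 FPKM), Ano1 (7.99 to 22.3 FPKM) and Scnn1b (8.38 to 16.9 FPKM) followed. The first 4 of these each exceeded the one after it in 7 to 9 of 10 libraries, within overlapping ranges, and Scnn1b exceeded Cftr in all 10. Cftr (1.595 to 4.35 FPKM) and Slc26a4 (0.839 to 5.49 FPKM) lay below all others in every library and did not differ beyond their spread, with Cftr higher in 6 of 10.

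**Figure D4:**
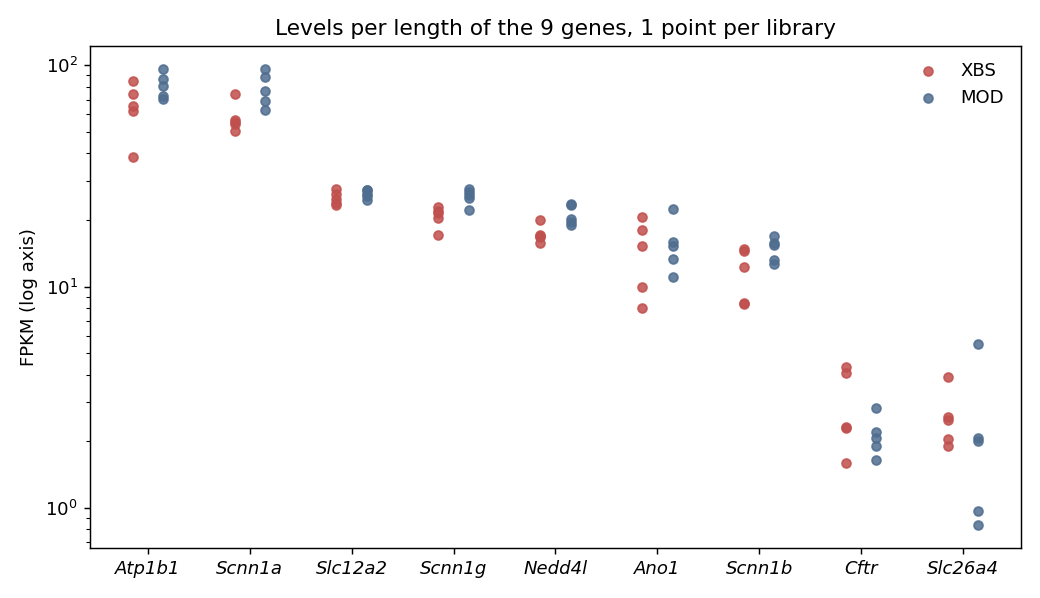
FPKM of each gene (vertical log axis) in the 5 XBS and 5 MOD libraries (1 point per library), ordered by the mean over all libraries. Scnn1a lies above Scnn1g and Scnn1b in every library, and Cftr and Slc26a4 form the low end.

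The balance of the channel's subunit messages asks whether the 3 genes moved in parallel. In FPKM, the ratio of Scnn1b to Scnn1a was 0.217, 0.154, 0.114, 0.262 and 0.290 in XBS 1 to 5, against 0.178, 0.166, 0.245, 0.190 and 0.176 in MOD 1 to 5. XBS 2 and XBS 3 lay below the MOD range and XBS 4 and XBS 5 above it, and the log2 ratio had an SD of 0.56 in XBS and 0.22 in MOD. The mean log2 ratio differed by 0.05 (two-sided exact permutation p = 0.857, adjusted over 4 ratios 0.857). Without XBS 2 and XBS 3 it differed by 0.43 (exact permutation p = 0.0536, adjusted 0.143). The ratio of Scnn1g to Scnn1a had a geometric mean of 0.358 in XBS and 0.328 in MOD (difference 0.13 on the log2 scale, exact permutation p = 0.405, adjusted 0.81), and the difference was 0.29 without XBS 2 and XBS 3 (exact permutation p = 0.0714, adjusted 0.143). That of Scnn1g to Scnn1b was 1.83 in XBS and 1.73 in MOD (difference 0.08, exact permutation p = 0.683, adjusted 0.857). XBS 2 and XBS 3 held the lowest XBS values of both ratios to Scnn1a. Leaving them out raises those differences by itself, so the p-values without them cannot serve as tests. The smallest p that the 252 assignments of all 10 libraries can give is 0.00794, and the 56 without XBS 2 and XBS 3 can give 0.0179.

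Of 72 further genes of the pathway in 7 lists, 71 were in the table and 65 were tested; 0 rose, 0 fell and 65 did not pass in edgeR. At an unadjusted p under 0.05, edgeR gave 6 higher and 3 lower, where 7.4% and 5.78% of all genes did so. DESeq2 called 2 of the 62 it tested, P2ry6 higher and Tsc22d3 lower, where it called 2.58% of all genes. limma voom called 1 of 65, Tsc22d3, where it called 0.468% of all genes. The groups did not overlap for 2 of the 65, Tsc22d3 (lower, as in 1.13% of all genes) and Ptger4 (higher, as in 1.61%). The median log2 fold change over the 65 was -0.01.

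Among the kinases, ligases and steroid control genes of the sodium channel, 9 of 13 had a negative fold change, and 0 passed. Tsc22d3 encodes GILZ, a glucocorticoid- and aldosterone-induced protein known in kidney cells to raise sodium channel activity at the surface. It had 171 to 303 CPM in XBS, against 313 to 515 CPM in MOD, with means of 229 ± 49.9 and 433 ± 77.3 CPM (SD, n = 5 each; edgeR adjusted p = 0.0858, and 4.65e-05 by DESeq2 within a range of 4.65e-05 to 0.239 over all alternatives). Sgk1, the kinase that phosphorylates Nedd4l and so keeps the channel at the surface, averaged 114 ± 14.5 CPM in XBS and 134 ± 16.5 CPM in MOD (SD, n = 5 each; log2 fold change -0.23 ± 0.11, SE, edgeR adjusted p = 0.382).

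The proteases that cleave and activate the channel, with their inhibitors, gave 3 positive and 4 negative fold changes of 7, and 0 passed. Prss8, or prostasin, averaged 71.1 ± 10.8 CPM in XBS and 84.4 ± 13.4 CPM in MOD (SD, n = 5 each; edgeR adjusted p = 0.432). Tmprss4, another membrane serine protease, had 4.96 to 12.2 CPM in XBS, against 4.61 to 8.43 CPM in MOD (edgeR adjusted p = 0.495). Of 11 pump subunits and FXYD proteins, which adjust the pump, 7 were positive, 4 negative and 0 passed. Fxyd5, which encodes dysadherin, averaged 73.6 ± 11.0 CPM in XBS and 56.8 ± 9.88 CPM in MOD (SD, n = 5 each; log2 fold change 0.37 ± 0.13, SE, edgeR adjusted p = 0.287). Fxyd7 stood at 1.01 to 2.74 CPM in XBS, against 0.598 to 1.37 CPM in MOD (edgeR adjusted p = 0.346).

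Chloride and bicarbonate genes gave 9 positive and 9 negative fold changes of 18 tested, and 0 passed. Slc26a6, an exchanger of chloride for bicarbonate and oxalate, had 15.9 to 32.5 CPM in XBS, against 10.2 to 19.3 CPM in MOD. XBS 1, XBS 2 and XBS 3 lay above every MOD library and XBS 4 and XBS 5 within the MOD range (log2 fold change 0.80 ± 0.25, SE, edgeR adjusted p = 0.228). Slc9a3r2, a scaffold that binds Cftr and sodium exchangers, averaged 270 ± 23.3 CPM in XBS and 311 ± 18.5 CPM in MOD (SD, n = 5 each; edgeR adjusted p = 0.306). Clcn2, Slc9a2 and Slc9a3 did not pass the filter; Clcn2 was listed at 0 in every library, as were the potassium channel subunit gene Kcne1 and the endothelial marker Cldn5. Of 5 listed markers of ionocytes, the rare airway cells rich in Cftr, 3 were in the table. Their summed level was 54.3 to 103 CPM in XBS, against 52.5 to 88.6 CPM in MOD, and nearly all of it was Atp6v1c2. Foxi1, the defining factor of these cells, had 0 to 1 counts in XBS and 0 to 2 in MOD, under the floor of 3 counts. The sum is therefore not a measure of ionocytes. The 2 tested markers had positive fold changes and did not pass in edgeR: Atp6v0d2 had 0.74 to 2.36 CPM in XBS, against 0.332 to 1.13 CPM in MOD (log2 fold change 0.92 ± 0.39, SE, adjusted p = 0.361), and Atp6v1c2 had 53.0 to 102 CPM in XBS, against 52.2 to 87.9 CPM in MOD (log2 fold change 0.17 ± 0.18, SE, adjusted p = 0.688). The part of ionocytes in the Cftr values was not tested.

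Epithelial potassium channels, which hold the electrical drive for secretion, gave 4 positive and 3 negative fold changes of 7 tested, and 0 passed. Kcnj15 had 23.8 to 75.2 CPM in XBS, against 66.5 to 85.3 CPM in MOD (edgeR adjusted p = 0.435). Kcnn4, a calcium-activated channel, had 14.3 to 19.5 CPM in XBS, against 9.77 to 18.1 CPM in MOD (edgeR adjusted p = 0.445). All 3 tested aquaporins were negative and 0 passed. Aqp1, the water channel of lung vessels, averaged 506 ± 121 CPM in XBS and 635 ± 103 CPM in MOD (SD, n = 5 each; edgeR adjusted p = 0.449), and Aqp5, that of alveolar type 1 cells, averaged 381 ± 90.8 CPM in XBS and 410 ± 69.3 CPM in MOD (edgeR adjusted p = 0.814). Aqp1 was lowest in XBS 1, at 297.5 CPM. Endothelial markers also summed lowest there, at 2382 CPM, against 3480 to 3649 CPM in the other XBS libraries and 3481 to 5022 CPM in MOD, and 6 of 7 tested were negative, with 0 passing in edgeR. Their part in the Aqp1 values was not tested. Of 6 receptors that drive secretion, 4 were positive, 2 negative and 0 passed. P2ry6, a receptor for UDP, had 11.1 to 16.5 CPM in XBS, against 6.66 to 11.9 CPM in MOD (log2 fold change 0.63 ± 0.17, SE, edgeR adjusted p = 0.188; 0.0318 by DESeq2, within a range of 0.0318 to 0.411). Ptger4, a prostaglandin E2 receptor, had 10.9 to 14.5 CPM in XBS, against 8.03 to 10.3 CPM in MOD (edgeR adjusted p = 0.315). The summed level of 10 leukocyte markers was 1272 to 1849 CPM in XBS, against 1099 to 1252 CPM in MOD, with 8 of 9 tested markers positive; their part in the receptor values was not tested.

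The profiles most like the 3 most variable members were sought over the 10 libraries by the root mean square difference of log2 CPM, each gene centred on its mean. Nearest to Slc26a4 were AABR07006033.1 (difference 0.27), Sel1l3 (0.395) and Fcgr2b (0.412), all 3 also highest in MOD 5. Nearest to Cftr were Dram1 (0.222), Zfp786 (0.223) and Napsa (0.226), an alveolar type 2 marker. Nearest to Ano1 were Dusp14 (0.129), Ccser1 (0.145) and Hp (0.153), the haptoglobin gene. All of these values come from the same libraries. The genes were picked for likeness of profile, so a shared peak such as that in MOD 5 follows from the choice.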

How the data were processed

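Lung RNA was extracted with Trizol, per the labels' protocols, and messenger RNA was purified, fragmented and amplified by PCR; strand, aligner, counter and rat build were not given in the sources used here. Processing notes by the submitters name hg38, GRCh38 and mm10, while the identifiers are rat Ensembl genes. Without strand, reads of overlapping genes cannot be told apart. Per the file headers, the authors deposited counts and FPKM for each gene in each library. All deposited counts are whole, and deposited FPKM can be recomputed from count, length and total to within a relative 8.82e-08. No libraries within a group agreed within sampling noise (chi-square per degree of freedom at least 9.46), so none were merged.

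The filter filterByExpr (count of 10, total of 15) left 14320 genes holding 99.921% of counts. After TMM scaling, XBS was compared with MOD by the robust quasi-likelihood test of edgeR 4.0.16 (R 4.3.3), with p-values adjusted by Benjamini and Hochberg's method over all genes tested and called at 0.05. CPM uses TMM-adjusted library sizes; SE is the log2 fold change over the square root of F; profiles and marker means use log2 CPM with prior count 2. FPKM ratios were tested by exact permutation, with adjustment over 4 ratios, of which 1 is not reported here. The floor of 3 counts covers counting error only. The test was first checked on simulated data. It recovered 42.0% of 1.5-fold, 73.7% of 2-fold and 93.4% of 4-fold changes, and 2.92% of its calls were false. Each gene was simulated independently, without shifts shared by many genes of a library, so these rates need not hold for the real libraries. Smaller changes were not simulated, so a gene that did not pass is not shown to be unchanged. Alternatives were DESeq2 1.42.0, limma 3.58.1 voom with sample weights, RLE and upper quartile scaling, 2 other filters, the replicate number as a block, and libraries left out.

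The members, lists and tests were chosen with earlier results of these data known. Named genes were the members, the 2 genes of smallest p of each pathway list, and the 3 nearest profiles of the 3 most variable members; other genes in the text (Sftpc, untested genes and markers) give a level. Promoters shown and motifs searched were chosen with the expression values known. The study's cell line experiments were not analysed here.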

Additional observations from a re-analysis of the deposited data

Results flagged for a closer look

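Of 54 groups of 5 examined, 5 held 1 library far from the others by Dixon's criterion (gap over range above 0.71), which chance meets in about 1 of 20 groups. Slc26a4 in MOD 5 was at 18.1 CPM, against 2.71 to 6.78 CPM in the other MOD libraries. Scnn1a in XBS 3 was at 259 CPM, with the nearest other XBS library at 187 CPM. Aqp1 in XBS 1 was at 297.5 CPM, with the nearest other XBS library at 533 CPM. Endothelial markers also summed lowest in XBS 1, at 2382 CPM, against 3480 to 3649 CPM in the other XBS libraries. Ptger4 in XBS 1 was at 14.5 CPM, with the nearest other XBS library at 11.3 CPM. The Scnn1g over Scnn1b ratio in MOD 2 was 1.99, with the nearest other MOD library at 1.70. The causes were not tested.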

How the results depend on the processing

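The direction held for 7 of the 9 members under all 18 alternatives. Ano1 and Slc26a4 turned: Ano1 to 0.006 without XBS 2, 0.027 without MOD 5 and 0.164 without XBS 2 and XBS 3, and Slc26a4 to -0.039 without XBS 4 or MOD 2 and -0.06 without MOD 3 (log2, against -0.146 and 0.154). With single libraries left out, Ano1 ran from -0.302 to 0.027 and Slc26a4 from -0.06 to 0.792. For any gene, leaving out a library with an extreme value moves the fold change by itself. Members called numbered 0 in edgeR and 2 by DESeq2, with 0 under every other alternative run. Pathway genes called numbered 0, against 2 by DESeq2, 1 by limma voom and 0 to 1 (Tsc22d3) with single libraries left out. Over all genes the 11 called by edgeR compare with 348 by DESeq2, 67 by limma voom, 1 with the replicate block, 3 without XBS 2 and XBS 3 and 4 to 15 with single libraries left out. The difference in the Scnn1g over Scnn1b ratio turned to -0.137 without XBS 2 and XBS 3 and ran from -0.045 (without XBS 3) to 0.149 with single libraries left out; that of Scnn1b over Scnn1a ran from -0.088 to 0.249, at -0.051 without XBS 4. The causes were not tested. The labels do not state that replicate numbers pair the libraries. Over all genes tested, same-numbered deviations correlated at -0.125 to 0.329, and 1 of 5 XBS libraries was nearest to its own number. These values cannot exclude a pairing. With the replicate block the SE fell from 0.261 to 0.105 for Ano1, and also for Scnn1b, Atp1b1, Nedd4l and Slc26a4. It rose from 0.145 to 0.169 for Scnn1a, and slightly for Scnn1g and Cftr, and stayed at 0.069 for Slc12a2. With the replicate block 0 members were called, and for the ratios an exact sign-flip permutation test of 5 differences cannot go below p = 0.0625. Genes near 3 counts could not be compared at this depth.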
